A study of Mus musculus with 13 samples.

Results

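Genes of replication origin licensing and helicase assembly were followed in a mouse mammary carcinoma line exposed to the anthracycline doxorubicin (DOX) and to the cytokine IL-17A. The 10 genes, *Orc1*, *Cdc6*, *Cdt1*, *Mcm10* and *Mcm2* to *Mcm7*, were chosen by name, with earlier results of these data known. All 10 were present among the 13222 genes of the expression table and among the 12319 genes that were tested. The cells were 4T1-Thy1.1, a derivative of the established BALB/c line 4T1 that expresses a Thy1.1 transgene, plated in 12-well plates; the labels give DMEM/F12 with FBS as the medium, whereas the study's methods name RPMI with FBS for 4T1 cells. The 4 groups of bulk RNA-seq libraries were compared after 48 hours: control cells without either agent (n = 3), cells with 200 ng/mL DOX (n = 4), cells with 200 ng/mL DOX together with 25 ng/mL recombinant mouse IL-17A (DOX+IL-17A, n = 3) and cells with 25 ng/mL IL-17A alone (n = 3). The comparisons address whether IL-17A alters the response of the tumor cells to DOX. The sources used here name no other cell type in these cultures, so the libraries describe cells in a dish and not a tumor.

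Origin licensing is the loading of the replicative helicase onto DNA before S phase. ORC1, the largest subunit of the origin recognition complex, marks the origin, CDC6 joins it, and CDT1 delivers the ring-shaped helicase that is built from MCM2 to MCM7. Geminin binds CDT1 and prevents loading outside G1, and CDT1 is also degraded once replication begins. MCM10 is not part of the ring and acts later, when the loaded helicase is activated at firing. Many of these genes are transcribed from late G1 under E2F factors, and DOX is a topoisomerase II poison that causes DNA double-strand breaks.

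The promoters of these genes were examined because the loading factors were called higher with DOX and the helicase subunits were not. Promoter windows, from RefSeq on GRCm38.p6, run from 250 bases before the start site to 50 bases after it, and 9 of the 10 genes had one. Each window was searched on both strands for 4 words of the E2F consensus, TTTCCCGC, TTTCGCGC, TTTGCCGC and TTTGGCGC, and for CCAAT, the word bound by NF-Y. An E2F word was found in 7 of the 9 genes (*Cdc6*, *Cdt1*, *Orc1*, *Mcm3*, *Mcm5*, *Mcm6* and *Mcm7*), whereas 2.26% of all 32851 windows held one. More than 1 such word was found in *Mcm3*, *Mcm5*, *Mcm6* and *Mcm7*, and 0.0974% of all windows held 2 or more. CCAAT was found in 8 of the 10 windows (*Mcm7* has 2 windows), beside 37.4% of all windows. *Cdc6* and *Cdt1* lacked CCAAT, and *Mcm2* and *Mcm10* lacked the E2F words in these windows. Windows of 6 genes are given, those of the 4 genes that were called higher with DOX and those of the ring subunits *Mcm5* and *Mcm6*, which were not called. They are written 5′ to 3′ on the strand of the gene, and capitals mark the E2F words. In *Mcm5* and in the first stretch of *Mcm6*, 2 words on opposite strands overlap and appear as a single run of capitals.
*Cdc6*, chr11:98907901-98908200, plus strand: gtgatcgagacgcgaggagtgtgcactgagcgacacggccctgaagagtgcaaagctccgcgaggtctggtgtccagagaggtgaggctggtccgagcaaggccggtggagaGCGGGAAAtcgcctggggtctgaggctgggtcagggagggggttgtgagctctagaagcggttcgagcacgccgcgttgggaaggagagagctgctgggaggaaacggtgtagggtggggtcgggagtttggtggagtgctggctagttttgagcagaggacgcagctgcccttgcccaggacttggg
*Cdt1*, chr8:122567765-122568064, plus strand: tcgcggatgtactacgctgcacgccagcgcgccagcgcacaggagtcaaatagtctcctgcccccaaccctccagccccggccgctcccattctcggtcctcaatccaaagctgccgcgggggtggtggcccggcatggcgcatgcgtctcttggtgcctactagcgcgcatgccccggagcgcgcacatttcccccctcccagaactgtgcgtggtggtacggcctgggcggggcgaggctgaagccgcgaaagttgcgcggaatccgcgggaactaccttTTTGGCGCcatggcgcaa
*Orc1*, chr4:108579204-108579503, plus strand: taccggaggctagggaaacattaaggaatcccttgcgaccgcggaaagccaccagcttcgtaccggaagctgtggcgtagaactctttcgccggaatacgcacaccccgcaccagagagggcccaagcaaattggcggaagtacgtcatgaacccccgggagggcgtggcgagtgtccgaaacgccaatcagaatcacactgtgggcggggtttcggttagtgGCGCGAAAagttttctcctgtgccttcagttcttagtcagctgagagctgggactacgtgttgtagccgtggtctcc
*Mcm10*, chr2:5012742-5013041, minus strand: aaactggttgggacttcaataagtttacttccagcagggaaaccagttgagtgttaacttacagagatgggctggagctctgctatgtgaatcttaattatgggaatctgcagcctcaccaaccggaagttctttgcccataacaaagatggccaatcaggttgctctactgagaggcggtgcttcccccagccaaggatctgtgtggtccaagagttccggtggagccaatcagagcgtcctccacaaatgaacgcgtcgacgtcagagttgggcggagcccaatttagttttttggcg
*Mcm5*, chr8:75109259-75109558, plus strand: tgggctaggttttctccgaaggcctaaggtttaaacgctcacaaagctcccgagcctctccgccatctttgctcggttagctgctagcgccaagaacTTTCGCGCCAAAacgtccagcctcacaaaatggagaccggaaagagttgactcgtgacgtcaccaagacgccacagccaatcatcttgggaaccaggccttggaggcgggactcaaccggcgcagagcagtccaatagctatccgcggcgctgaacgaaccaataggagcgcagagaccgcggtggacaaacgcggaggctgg
*Mcm6*, chr1:128359656-128359955, minus strand: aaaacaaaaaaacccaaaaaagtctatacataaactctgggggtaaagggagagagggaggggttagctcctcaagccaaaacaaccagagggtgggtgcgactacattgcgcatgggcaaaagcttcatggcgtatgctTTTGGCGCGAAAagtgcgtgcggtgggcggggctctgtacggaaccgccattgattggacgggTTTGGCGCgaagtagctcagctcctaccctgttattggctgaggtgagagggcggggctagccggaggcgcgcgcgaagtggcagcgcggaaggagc
The word in *Cdc6* began 138 bases before the RefSeq start site, that in *Orc1* 27 bases before it and that in *Cdt1* 32 bases after it. The *Cdc6* window lies wholly within the span that GENCODE gives for the gene (chr11:98907801-98923940). The bases before the GENCODE start of *Cdc6* were therefore not searched for E2F words or CCAAT. The windows of *Cdc6*, *Cdt1* and *Orc1* held 1 word each, that of *Mcm5* held 2 and that of *Mcm6* held 3. The 2 words of *Mcm5* overlap and form 1 stretch. A relation between these words and the fold changes given below was not tested. A matching word is a description of the sequence and does not show that a factor was bound.

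RNA was read as 3′ tags (QuantSeq, single-end 75 base reads), so a value is the number of tags of a gene per 1000000 of the library size after TMM scaling, and it was not divided by gene length. Between 4445592 and 16930600 reads per library fell on the listed genes, and 3 reads correspond to 0.183 to 0.613 units. Log2 fold changes were fitted with limma on log2(value + 1), so those of low genes are understated. A gene was called when its adjusted p, by the method of Benjamini and Hochberg over all 12319 genes, was below 0.05 and its fold change above 2. The labels do not say whether the replicates were separate cultures, so the p-values measure the spread between these libraries, which may be technical. In these bulk samples a change in the number of cells that express a gene and a change in its RNA per cell cannot be told apart. All 6 epithelial markers were present in all groups, and their summed value was 1932 to 2248 in control, 1706 to 2050 with IL-17A, 935 to 1034 with DOX and 816 to 1033 with DOX+IL-17A. Muscle markers summed to 246 in DOX replicate 1 and to at most 40.3 in the other libraries, and without that library the same number of licensing genes, 4, was called in DOX against control. The 5 fibroblast markers summed to 143 in control replicate 1 and to 27.9 to 78.1 in the other libraries, and control replicate 1 is also the highest control library for *Mcm3*, *Mcm7* and *Mcm10*. Of 8 immune cell markers, 3 were present. Their sum was 14.5 to 18.6 in control and 18.0 to 36.6 with DOX. It was 6.36 to 12.7 with DOX+IL-17A and 3.27 to 7.39 with IL-17A, so every library with IL-17A was below every library without it. The part of these marker differences in the results below, the comparisons of IL-17A included, was not tested.

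DOX raised the transcripts of the loading factors and of *Mcm10*, while no subunit of the helicase ring passed the test; the difference between the loading factors and the ring was not itself tested. In DOX against control, 4 of the 10 genes were called higher (*Cdc6*, *Orc1*, *Mcm10* and *Cdt1*) and 0 lower, where 9.15% of all tested genes were called higher and 6.18% lower. The median log2 fold change of the 10 genes was 1.02, and that of all tested genes was 0.09. The groups did not overlap for 6 of the 10 genes, the 4 called ones with *Mcm4* and *Mcm6*, all higher with DOX, and the background of such genes was 18.5%. The split of all calls depended on the scaling: 1127 genes were called higher and 761 lower after TMM scaling, and 1516 and 488 after scaling by library size alone, which moved the median of all genes from 0.09 to 0.24 and added *Mcm6* (1.04) to the called licensing genes.

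**Figure D1:**
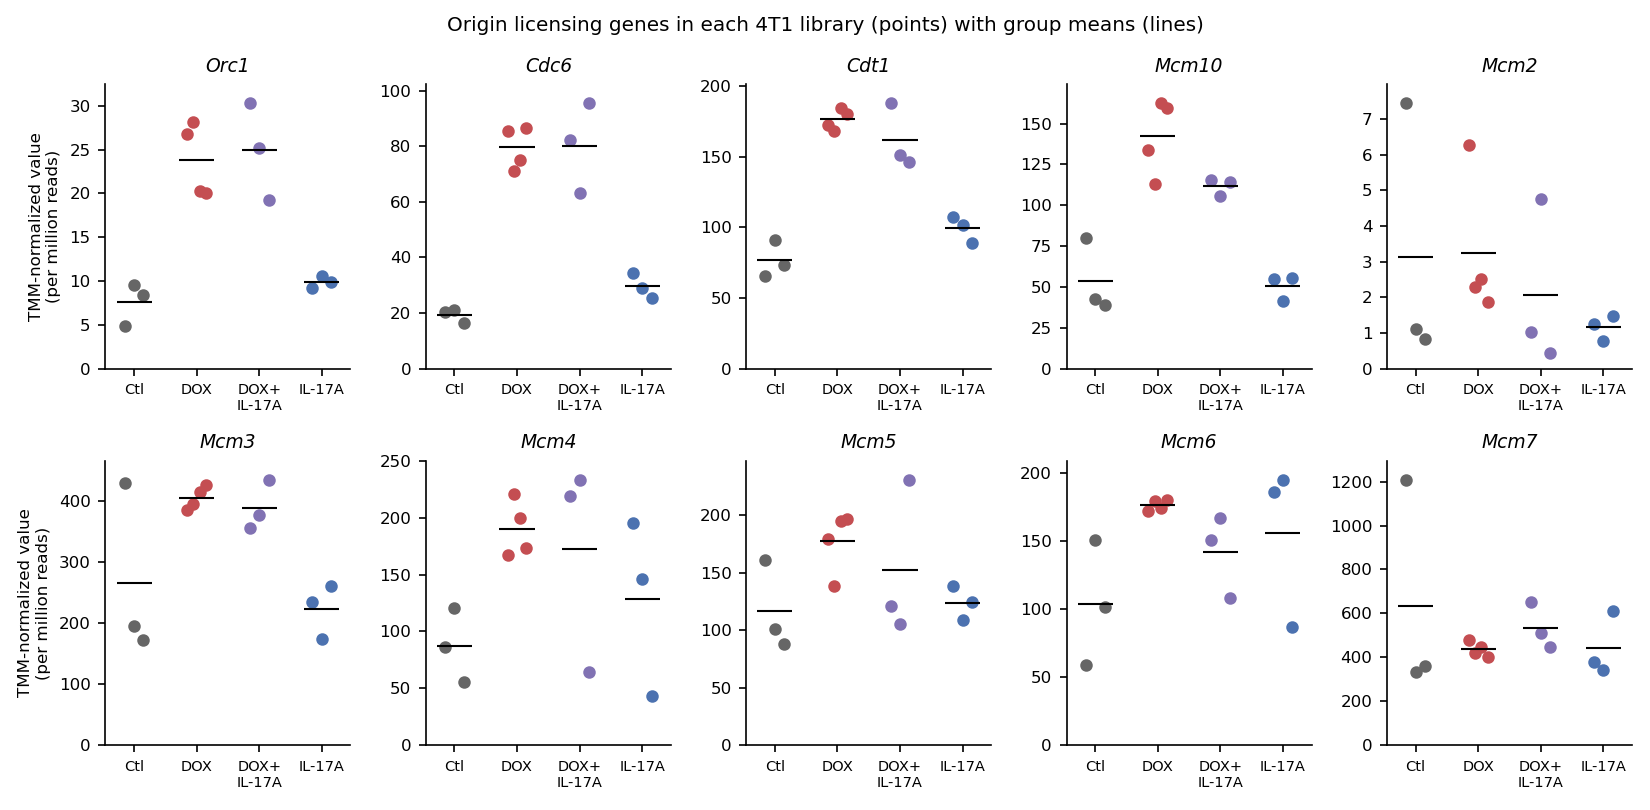
TMM-normalized value (y axis, per 1000000 tags of the scaled library) of each of the 10 genes in the 13 libraries, by group (x axis), with a point for each library and a line at the group mean. *Orc1*, *Cdc6*, *Cdt1* and *Mcm10* separate the DOX-treated groups from the others, and control replicate 1 stands far above the other control libraries for *Mcm7* (1208) and *Mcm3* (428).

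*Cdc6*, the ATPase that completes the loading platform on ORC, had the largest fold change of the 10 genes. Values are given here and below in the order of the replicates, which are 1, 3 and 5 in control, 1 to 4 with DOX, and 2, 3 and 5 in both groups with IL-17A. Its normalized values were 20.5, 21.1 and 16.5 in control, 85.7, 71.2, 75.2 and 86.6 with DOX, 82.2, 63.3 and 95.5 under DOX+IL-17A, and 34.5, 29.1 and 25.3 with IL-17A. Every DOX-treated library was above every library without DOX, and the IL-17A libraries lay between control and DOX. The mean was 19.4 ± 2.50 (SD, n = 3) for the control libraries and 79.7 ± 7.66 (SD, n = 4) for those with DOX, a ratio of 4.11. The fitted log2 fold change was 1.99 ± 0.21 (SE; limma adjusted p = 2.44e-05), higher than that of 98.5% of the genes tested.

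*Orc1* encodes the subunit that anchors the complex at the origin. Its values were 4.91, 9.56 and 8.37 in control, 26.7, 28.1, 20.3 and 20.0 with DOX, 30.3, 25.2 and 19.3 under DOX+IL-17A, and 9.24, 10.5 and 9.84 with IL-17A. The lowest DOX-treated library was well above the highest of the others, although the control value of replicate 1 rests on 29 reads. The log2 fold change was 1.55 ± 0.28 with DOX (limma adjusted p = 0.00152), and the ratio of the means was 3.13. In the GENCODE annotation of GRCm38, *Gm12743* overlaps *Orc1* (chr4:108579423-108614833, plus strand) on the other strand.

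*Cdt1*, which brings the helicase to the origin, had the lowest SD of log2 values around the group means of the 10 genes (0.163, over all 13 libraries). Its values were 65.8, 91.5 and 73.1 in control, 173, 168, 185 and 180 with DOX, 188, 152 and 146 under DOX+IL-17A, and 108, 102 and 89.0 with IL-17A. The DOX libraries spanned a narrow range far above control, and the highest control library was just above the lowest IL-17A library. The log2 fold change with DOX was 1.204 ± 0.18 (limma adjusted p = 0.000372). An annotated gene on the same strand, *Gm20388*, overlaps *Cdt1* (chr8:122568015-122573554, plus strand), and reads could be split between them.

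*Mcm10*, the factor of helicase activation, had values of 79.7, 42.3 and 38.9 in control, 134, 113, 162 and 160 with DOX, 115, 106 and 114 under DOX+IL-17A, and 54.9, 41.2 and 55.2 with IL-17A. Control replicate 1 was the highest of the libraries without DOX, and it was still below every DOX-treated library. The log2 fold change with DOX was 1.45 ± 0.24 (limma adjusted p = 0.000905), and without control replicate 1 it was 1.77. Over the leave-one-out fits, in which each of the 13 libraries was left out in turn, these 4 genes stayed called in DOX against control in all 13.

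None of the 6 subunits of the helicase ring was called in DOX against control, and their log2 fold changes were between -0.27 (*Mcm7*) and 1.18 (*Mcm4*). By unadjusted limma p, 4 of them (*Mcm3*, *Mcm4*, *Mcm5* and *Mcm6*) were below 0.05, as were 36.5% of all tested genes, and voom, edgeR and DESeq2 called none of them either. *Mcm3* was measured at 428, 195 and 172 in control, 385, 395, 415 and 425 with DOX, 355, 376 and 434 under DOX+IL-17A, and 235, 173 and 260 with IL-17A. Control replicate 1 thus lay just above the DOX libraries, and the other control libraries lay far below them. The log2 fold change was 0.73 ± 0.26 (limma adjusted p = 0.0546), and without control replicate 1 it was 1.14 (limma adjusted p = 0.000459), which passed both thresholds.

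*Mcm4* and *Mcm6* are neighbours in the helicase ring. *Mcm4* was measured at 86.6, 120 and 55.05 in control, 167, 221, 200 and 173 with DOX, 220, 233 and 64.5 under DOX+IL-17A, and 196, 147 and 43.3 with IL-17A. *Mcm6* was measured at 58.9, 151 and 102 in control, 173, 179, 174 and 181 with DOX, 151, 167 and 108 under DOX+IL-17A, and 186, 195 and 87.2 with IL-17A. For both genes the DOX libraries were close together and above all control libraries, and replicate 5 was the lowest library of the DOX+IL-17A and IL-17A groups. The log2 fold changes with DOX were 1.18 ± 0.48 for *Mcm4* (limma adjusted p = 0.0874) and 0.86 ± 0.31 for *Mcm6* (limma adjusted p = 0.0559). *Mcm4* was called when DOX+IL-17A replicate 5 or IL-17A replicate 5 was left out, and *Mcm6* when control replicate 3 was left out (1.18).

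*Mcm7* was the only ring subunit with a negative fitted value in this comparison. Its values were 1208, 331 and 358 in control, 477, 418, 446 and 402 with DOX, 650, 509 and 446 under DOX+IL-17A, and 377, 340 and 609 with IL-17A. The log2 fold change with DOX of -0.27 ± 0.35 (limma adjusted p = 0.616) rested on control replicate 1, and without that library it was 0.34. *Mcm7* lies at chr5:138164583-138172422 on the minus strand of GRCm38, and *Cops6* runs on the other strand within 500 bases of its 3′ end, where 3′ tags fall. Whether the authors counted by strand is not given in the sources used here, so reads of the 2 genes may not be separated.

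*Mcm5* had values of 161, 101 and 87.6 in control, 179, 138, 195 and 197 with DOX, 121, 105 and 231 under DOX+IL-17A, and 138, 109 and 124 with IL-17A, and these ranges overlapped between all groups. Its log2 fold change with DOX was 0.64 ± 0.27 (limma adjusted p = 0.101). *Mcm2* was barely detected, at 0.437 to 7.44 units and 5 to 78 reads per library, while *Mcm3* was read between 1101 and 6949 times. Its log2 fold change with DOX of 0.31 had a 95% confidence interval from -0.88 to 1.498, which includes no change and a 2-fold rise. An annotated gene, *Gm36189*, lies on the other strand within 500 bases of the 3′ end of *Mcm2* (chr6:88883474-88898780, minus strand).

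The makeup of the helicase transcripts differed between libraries. *Mcm7* made up 36.8% to 61.9% of the summed *Mcm2* to *Mcm7* value in the control libraries and 29.1% to 34.4% with DOX, with 34.7% to 43.4% with DOX+IL-17A and 33.3% to 54.1% with IL-17A. *Mcm3* made up 21.7% to 22.2% in control and 27.7% to 30.8% with DOX. *Mcm2* made up at most 0.453% in any library. These shares describe 3′ tags and were not tested. The sum over the ring was 1950, 899 and 775 in control and 1354 to 1433 with DOX, so the control range enclosed the DOX range. That rested on control replicate 1 (1950), and the other control libraries were below every DOX library. The sum of *Orc1*, *Cdc6* and *Cdt1* was 91.2 to 122 in control and 124 to 151 with IL-17A. It was 268 to 287 with DOX, and DOX+IL-17A gave 240 to 300, so here the groups with and without DOX were far apart.

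**Figure D2:**
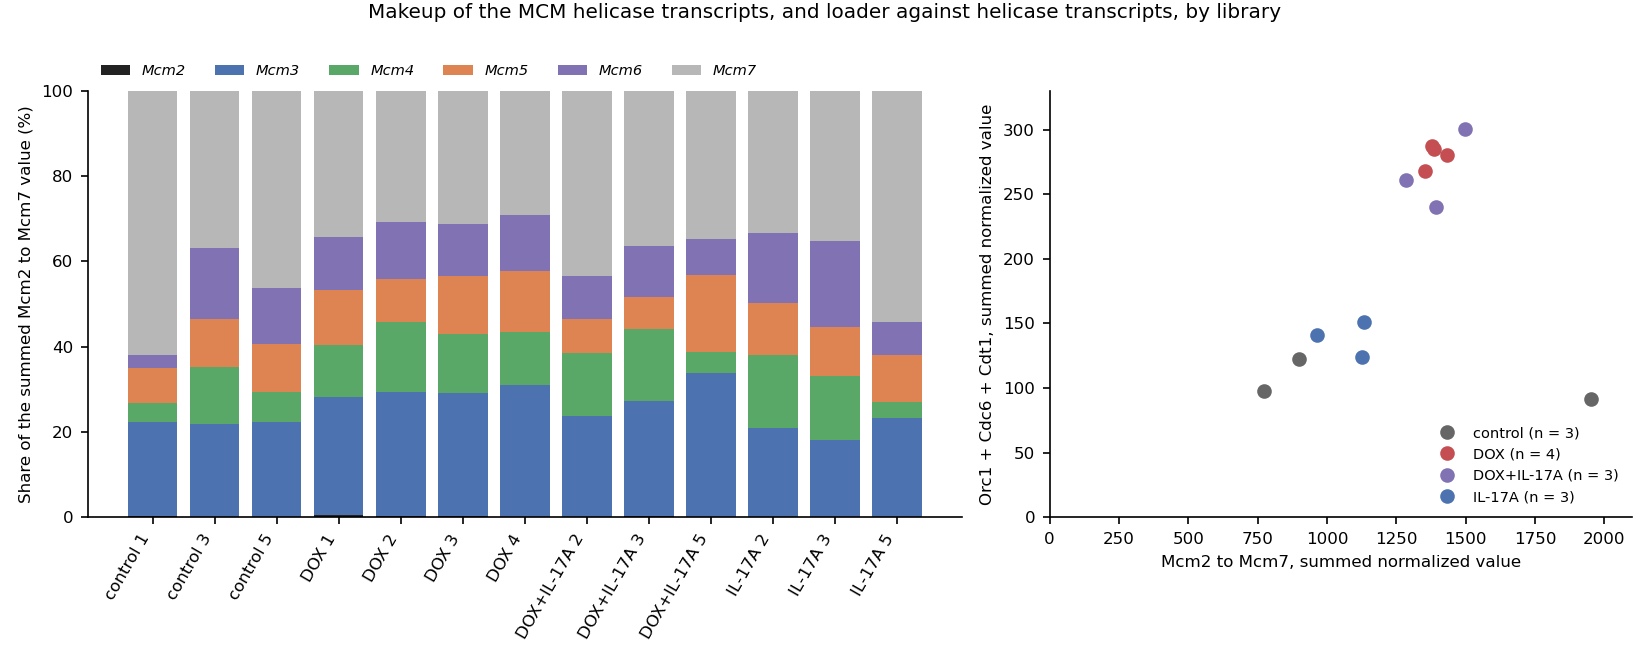
Left, the share (y axis, %) of each ring subunit in the summed normalized value of *Mcm2* to *Mcm7* in each library (x axis). Right, the summed value of *Orc1*, *Cdc6* and *Cdt1* (y axis) against the summed ring value (x axis), a point for each library; the DOX-treated libraries lie at 240 to 300 on the y axis, the others at 91.2 to 151, and control replicate 1 lies at 1950 on the x axis.

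The genes also differed in how much of their spread over the 13 libraries lay between the groups. On the log2 scale this share was 96.1% for *Cdc6*, 93.1% for *Cdt1*, 89.1% for *Orc1* and 86.4% for *Mcm10*. It was 61.5% for *Mcm3*, 33.2% to 39.9% for *Mcm4*, *Mcm5* and *Mcm6*, 19.1% for *Mcm2* and 8.62% for *Mcm7*. The loading factors thus followed the treatment groups closely, while most of the spread of the ring subunits other than *Mcm3* lay within groups. Across the 13 libraries the Pearson correlation of log2 values was 0.96 between *Cdc6* and *Cdt1*, 0.95 between *Cdt1* and *Orc1* and 0.90 between *Cdc6* and *Orc1*. These genes share their libraries and group differences. For deviations from the group means the same pairs had 0.31, 0.55 and -0.31. Among other pairs, the correlation of deviations was 0.90 between *Mcm3* and *Mcm10*, 0.85 between *Mcm3* and *Mcm7* and -0.77 between *Mcm6* and *Mcm7*. All are given as descriptions, with control replicate 1 high in *Mcm3*, *Mcm7* and *Mcm10* and low in *Mcm6*.

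With IL-17A added to DOX, the same 4 genes were called higher against control, *Cdc6* (log2 fold change 1.99 ± 0.22, limma adjusted p = 9.98e-05), *Orc1* (1.61 ± 0.30, adjusted p = 0.00248), *Mcm10* (1.12 ± 0.26, adjusted p = 0.00882) and *Cdt1* (1.07 ± 0.19, adjusted p = 0.00172). The background of genes called higher was 6.95%, and 0 of the 10 genes were called lower against a background of 5.95%. These are also the 4 genes whose groups did not overlap, beside a background of 15.6%. This comparison uses the same control libraries as the one with DOX alone, so the lists are not independent. The ring subunits had log2 fold changes from -0.32 (*Mcm2*) to 0.84 (*Mcm4*), and *Mcm3*, at 0.67 (limma adjusted p = 0.108), reached 1.08 (limma adjusted p = 0.00111) without control replicate 1. *Cdt1* was close to the fold limit, with 0.97 without control replicate 1 and 0.96 without DOX+IL-17A replicate 2, both below 2-fold. *Mcm10* fell below 2-fold without control replicate 3 and without control replicate 5, with the lowest value at 0.93.

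**Figure D3:**
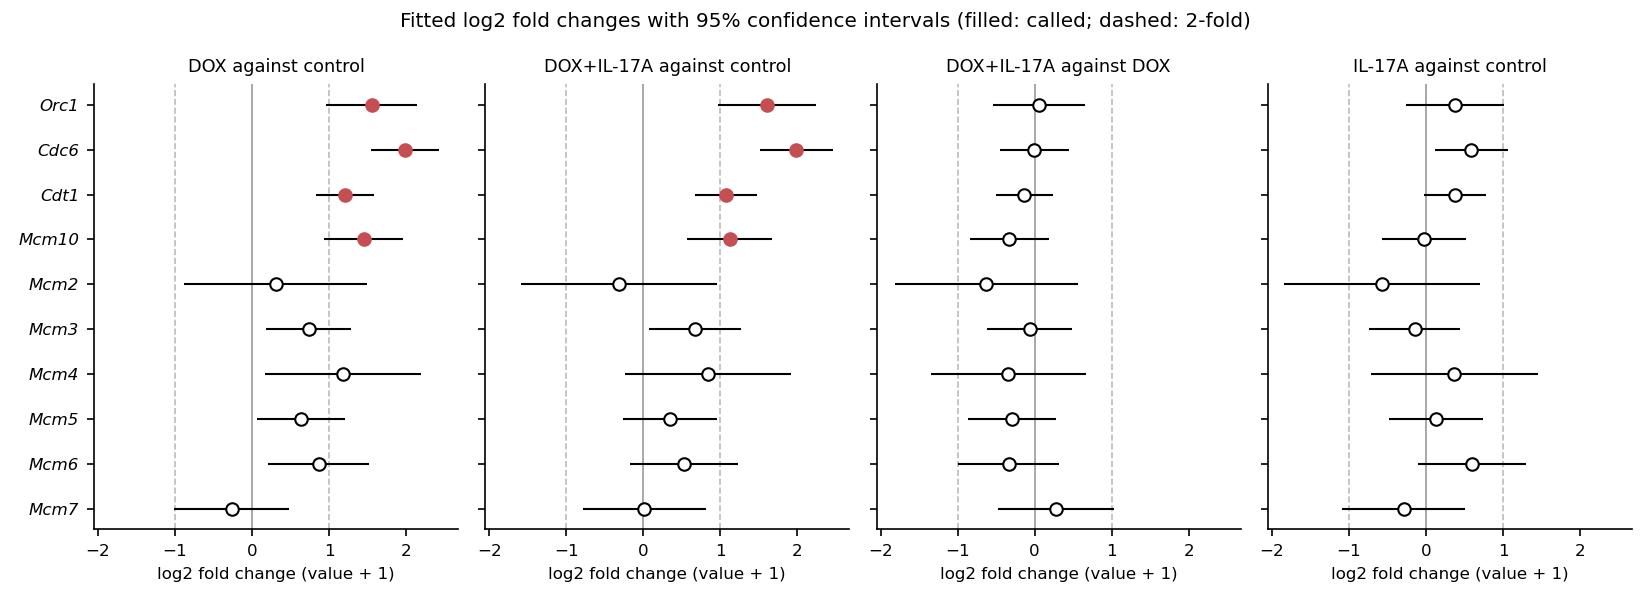
Fitted log2 fold changes on the log2(value + 1) scale (x axis) of the 10 genes with 95% confidence intervals in 4 comparisons, with filled points for genes called and dashed lines at 2-fold. *Cdc6*, *Orc1*, *Cdt1* and *Mcm10* lie at 1.07 to 1.99 in both comparisons of DOX-treated cells with control, and the intervals of DOX+IL-17A against DOX include 0 for all 10 genes.

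A difference of these genes between DOX-treated cells with and without IL-17A was not detected. In DOX+IL-17A against DOX 0 of the 10 genes were called, with 0.114% of all tested genes called higher and 0.325% lower, and 0 of the 10 had an unadjusted p below 0.05 with limma, voom, edgeR or DESeq2. The log2 differences were -0.63 (*Mcm2*) to 0.28 (*Mcm7*). The intervals show what could have been missed: they ran from -0.45 to 0.44 for *Cdc6*, from -0.51 to 0.24 for *Cdt1*, from -0.54 to 0.65 for *Orc1* and from -0.84 to 0.18 for *Mcm10*, so a 2-fold difference lay outside them for these 4 genes. For *Mcm4* the interval ran from -1.35 to 0.67 and for *Mcm2* from -1.81 to 0.56. *Mcm6* alone did not overlap between these groups, at 108 to 167 with DOX+IL-17A and 173 to 181 with DOX, and 5.61% of all tested genes were lower without overlap.

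With IL-17A alone, no difference of these genes from control passed the correction over all genes. None of the 10 genes was called, while 0.00812% of all tested genes were called higher and 0% lower. *Cdc6*, at 25.3 to 34.5 against 16.5 to 21.1, was the only one of the 10 whose groups did not overlap, beside a background of 3.17%. Its log2 fold change was 0.59 ± 0.22 with an unadjusted limma p of 0.0188 and an adjusted p of 0.959, so it failed the correction over all genes. With limma, voom, edgeR and DESeq2 1 of the 10 genes had an unadjusted p below 0.05, beside 3.08% of all genes in limma, and none did when only the 2 groups were fitted. The other log2 fold changes were between -0.57 (*Mcm2*) and 0.60 (*Mcm6*). Whether IL-17A acted differently in cells that also had DOX was tested as an interaction term in limma. There 0 of the 10 genes passed and 0 had an unadjusted p below 0.05 (as with voom, edgeR and DESeq2). Of all genes, 4.51% had such a p in limma. In limma 0% of all genes passed in either direction, whereas DESeq2 called 0 of all genes higher and 18 lower. Without IL-17A replicate 5, 4 of the 10 had an unadjusted limma p below 0.05 in the interaction and 4 in IL-17A against control. None of them passed the correction. The interaction values were from -0.93 (*Mcm6*) to 0.57 (*Mcm7*) on the log2 scale.

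Against cells with IL-17A alone, the addition of DOX raised *Cdc6* (log2 fold change 1.40 ± 0.22, limma adjusted p = 0.00145), *Orc1* (1.23 ± 0.30, adjusted p = 0.0151) and *Mcm10* (1.14 ± 0.26, adjusted p = 0.0104), beside 4.92% of all genes called higher and 4.92% lower. Same-numbered libraries of these 2 groups deviated together, and the same 3 genes were called with replicate as a block. *Cdt1* had an adjusted p of 0.0245 in limma, with a log2 fold change of 0.69 ± 0.19, below the fold limit, and by the adjusted p alone 6.51% of all genes were higher. *Orc1* was not called without DOX+IL-17A replicate 2, where its log2 value was lowest at 1.09, nor *Mcm10* without IL-17A replicate 3 (1.01), their adjusted p then being 0.0602 and 0.0531 in limma. *Mcm3* was the fifth gene without overlap, at 355 to 434 against 173 to 260, where the background was 16.4%. Its log2 fold change was 0.82 ± 0.28 (limma adjusted p = 0.0643).

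Geminin, encoded by *Gmnn*, holds CDT1 inactive, and the ratio of the 2 transcripts within a library does not depend on how the library was scaled. The *Cdt1* to *Gmnn* ratio was 3.81, 2.50 and 2.53 in control, 3.54, 4.06, 5.03 and 5.03 with DOX, 4.05, 3.16 and 4.34 under DOX+IL-17A, and 1.99, 2.57 and 5.22 with IL-17A. The groups overlapped in all 5 comparisons. The log2 difference between DOX and control was 0.60 (2-sided exact permutation p = 0.114, 0.476 after adjustment over the 5 comparisons), and the smallest p that 4 against 3 libraries can give is 0.0571. Those of the other comparisons were -0.19 to 0.40, with exact permutation p from 0.2 to 0.8. With 3 against 3 libraries the smallest possible p is 0.1, so none of the 5 comparisons could give a p below 0.05. *Gmnn* itself was not called with DOX (log2 fold change 0.60, limma adjusted p = 0.216).

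The remaining genes of the pathway were taken from lists that were fixed by function, also with earlier results of these data known. In DOX against control 9.15% of all tested genes were called higher and 6.18% lower. Among 11 other genes of the origin recognition and licensing machinery, 3 were called higher with DOX and 0 lower. They were *Orc6* (2.10) and *Orc2* (1.46), both subunits of the origin recognition complex, and *Mcm8* (1.02), a helicase homologue of recombination repair. *Orc6* averaged 25.3 ± 10.6 (SD, n = 3) without treatment and 106 ± 18.7 (SD, n = 4) under DOX (the largest log2 fold change with DOX on any of the lists). The median of the 11 genes was 0.01, below that of all genes. With DOX+IL-17A *Orc6* (1.998) and *Orc2* (1.45) were called again, and *Mcm9*, the partner of MCM8, was called lower (-1.15). The backgrounds there were 6.95% higher and 5.95% lower. *Mcm9* was a low gene, with 30 to 60 reads per library in control and 6 to 22 with DOX+IL-17A.

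Origin firing is the step that turns a loaded helicase into a moving one. Of 17 genes on this list, 7 were called higher in DOX against control and 7 in DOX+IL-17A against control, and 0 were called lower in either. The backgrounds of genes called higher were 9.15% and 6.95%, and those of genes called lower were 6.18% and 5.95%. The 17 log2 fold changes with DOX were all above 0, from 0.30 to 1.56, with a median of 0.79. The called genes were *Gins3* (1.56) and *Cdc45* (1.33), which join the MCM ring to form the active helicase, *Wdhd1* (1.44), *Ticrr* (1.125) and *Donson* (1.098), which act in its assembly, and *Ccne1* (1.43) and *Ccne2* (1.28), the cyclins E that drive the G1 to S transition. With DOX+IL-17A *Ccne1* was at 2.06 and *Cdc45* at 1.498, *Recql4* was called at 1.60, and *Ticrr* was not called. *Recql4* was barely detected, with 4 to 11 reads per library in control, 0 to 12 with IL-17A and 29 to 76 with DOX+IL-17A.

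Of 9 genes that degrade CDT1 and CDC6 or control that degradation, *Dtl* was called higher with DOX (1.17) and DOX+IL-17A (1.31), and no other was. Of all tested genes, 9.15% and 6.95% were called higher in these comparisons with control, and 1 of 9 is near these shares. DTL is the substrate receptor that targets CDT1 at the replication fork. Of 22 replication fork genes, 7 were called higher with DOX, *Fen1* (1.90), *Pola2* (1.85), *Rpa2* (1.19), *Tipin* (1.09), *Pcna* (1.07), *Rfc3* (1.07) and *Timeless* (1.03), and *Pola1* was called lower (-1.0003). Beside them, 9.15% of all tested genes were called higher and 6.18% lower, and 1 lower call of 22 is near that share. *Pola2* and *Pola1* encode subunits of DNA polymerase alpha and thus went in opposite directions. With DOX+IL-17A *Pola2* (1.88), *Fen1* (1.31) and *Tipin* (1.28) were called higher, beside 6.95% of all tested genes. Of 11 E2F and RB family genes, *Rbl1*, which encodes the pocket protein p107, was called lower against control with DOX (-1.18) and DOX+IL-17A (-1.54). The backgrounds of genes called lower were 6.18% and 5.95%, and 1 of 11 is near these shares. *E2f1*, at 0.96 in DOX+IL-17A against control and 1.14 in DOX+IL-17A against IL-17A (limma adjusted p = 0.0913 and 0.0562), was called in both with the replicate block (1.14 in each, adjusted p = 0.039 and 0.0242). Of 18 mitosis genes, limma called 0 in any comparison. With DOX against control 7 of them had an unadjusted p below 0.05, near the 36.5% of all genes, and 2 an adjusted one, and their log2 fold changes were -0.40 to 1.39 with a median of 0.39. By unadjusted p, *E2f5* (-0.91) and *Birc5* (0.50) of these lists were below 0.05 in IL-17A against control, and *Recql4* (0.89) was in DOX+IL-17A against DOX, and none of these passed the correction.

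**Figure D4:**
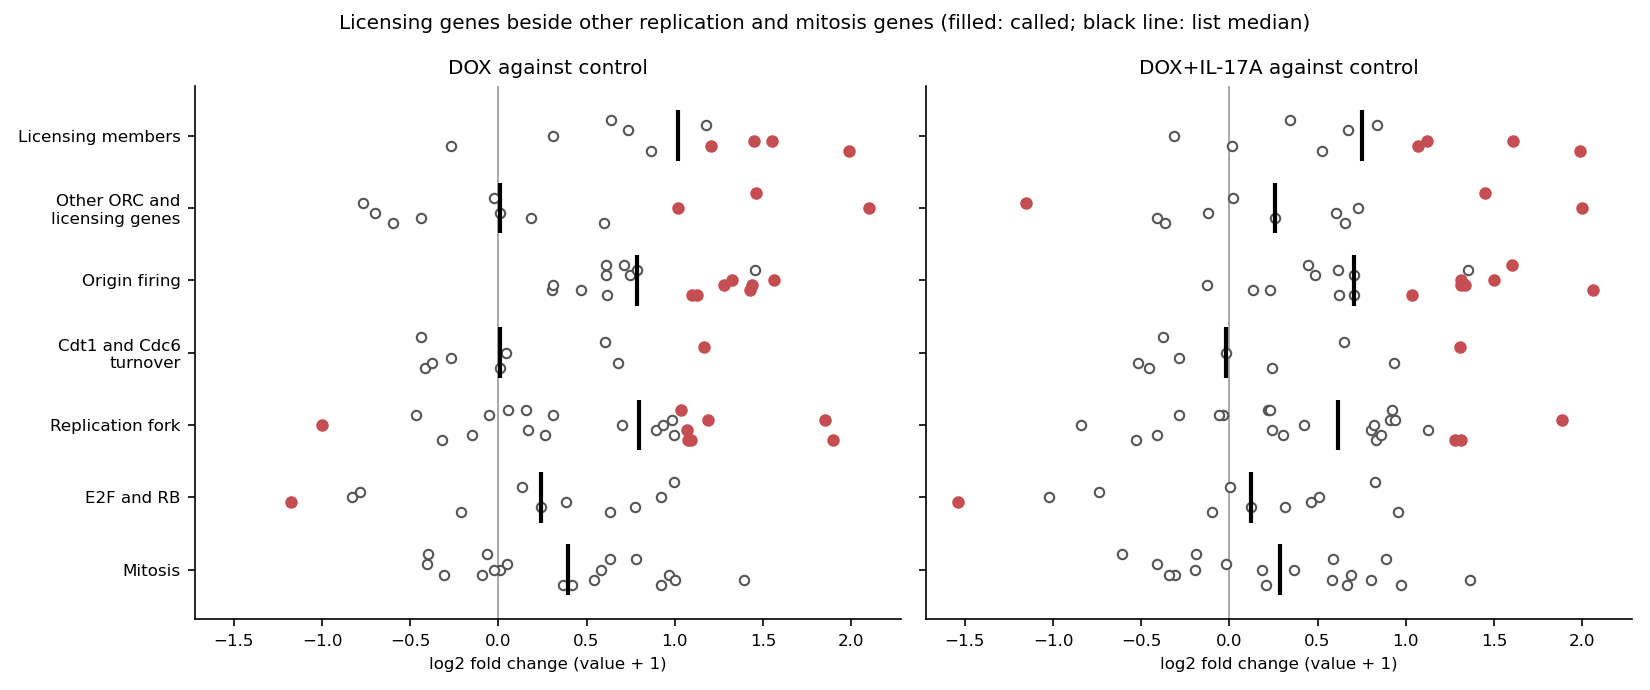
Fitted log2 fold change on the log2(value + 1) scale (x axis) of each tested gene of the 7 lists (y axis) in DOX against control (left) and DOX+IL-17A against control (right), with filled points for genes called and a black line at the list median. The licensing genes have a median of 1.02 on the left and 0.75 on the right, and no mitosis gene is called.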

How the data were processed

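Total RNA of 13 samples of 4T1-Thy1.1 cells was sequenced as 3′ tags with the QuantSeq kit on an Illumina NextSeq 500 (single-end, 75 bases). Per the labels and methods, the authors aligned reads to mm10 with STAR 2.6, counted them with featureCounts (Rsubread 1.30.5) and scaled by TMM; a strand setting is not given in the sources used here. The deposited signal is therefore a TMM-normalized tag number per 1000000 of the scaled library size, one column per library. The table had 13223 rows, and an identical second *Ifit1* row was dropped, leaving 13222 genes, of which 17 are named as dates. All values were whole multiples of what 1 read is worth (tolerance 0.01 reads), so read numbers were recovered; totals were 4445592 to 16930600 reads per library.

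Libraries were grouped by the labels. Limma (3.58.1, R 4.3.3) with a mean-variance trend was run on log2(value + 1) of the 12319 genes kept by edgeR's filterByExpr, with condition as the only term and all 13 libraries in the fit; the authors used voom and limma with the same thresholds. Genes were called at an adjusted p (Benjamini-Hochberg over all genes tested) below 0.05 and a fold change above 2, and the interaction by the adjusted p alone. Alternatives were voom, edgeR (4.0.16) and DESeq2 (1.42.0) on the recovered reads, library-size scaling, other filters and pseudocount (0.1), fits restricted to the groups at hand, a replicate block (replicates share only a number, but the deviations of same-numbered DOX+IL-17A and IL-17A libraries correlated at 0.168, 0.203 and 0.355, so the block applies to that comparison), and leaving out each library. On simulated data for DOX against control (12319 genes, 200 changed by 4-fold), limma trend recovered 176 with 2 false calls. Every simulated gene had the same dispersion of 0.05, and no library stood apart. The simulation therefore checks the procedure and does not give the power or false calls for these genes or for smaller changes. The ratio of *Cdt1* to *Gmnn* was compared by exact permutation tests. Named genes were the 10 members, called genes of the fixed lists and the extremes of a list. The members and lists were chosen with earlier results of these data known. Promoters came from RefSeq tables on GRCm38.p6 and gene positions from GENCODE M21 on GRCm38 (mm10).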

Additional observations from a re-analysis of the deposited data

Results flagged for a closer look

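*Mcm2* in DOX replicate 1 stood apart from the other DOX libraries. Its value was 6.28 units (78 reads), against 1.88 to 2.52 in the other 3, and the gap took 0.855 of the whole range, above Dixon's 95% critical value for 4 values. Of 11 sets of 4 values examined, this was the one that exceeded it, and chance alone exceeds it in about 5% of sets. The same library had the highest summed muscle markers (246) and red blood cell markers (66.5) of all 13 libraries, and their part in the value was not tested. Without this library the log2 fold change of *Mcm2* in DOX against control was 0.02 in place of 0.31, and neither was called.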

How the results depend on the processing

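The count of licensing genes called was 4 to 5 in DOX against control, 3 to 4 in DOX+IL-17A against control and 2 to 4 in DOX+IL-17A against IL-17A over all settings. The 11 called gene results kept their sign in all 242 other fits and were no longer called in 8 of them, of which 6 left out a library, 1 fitted only the groups compared (*Mcm10* in DOX+IL-17A against control, adjusted p = 0.0691 in limma) and 1 used the replicate block. The cause of these changes was not tested. Scaling by library size alone split the calls over all genes into 1227 higher and 517 lower in DOX+IL-17A against control, in place of 856 and 733, and into 1017 and 381 in DOX+IL-17A against IL-17A, in place of 606 and 606, and moved the medians of all genes from 0.04 to 0.20 and from 0.02 to 0.22. There *Mcm3* was called in DOX+IL-17A against IL-17A (1.04) and *Mcm6* changed sign (0.15). A fit of only the groups compared gave 305 higher and 294 lower genes in DOX+IL-17A against control and called *Mcm4* in DOX against control (1.18, adjusted p = 0.0134 in limma). IL-17A against control had 1 called gene of all tested with limma trend, 0 with voom and edgeR, and 11 higher and 2 lower with DESeq2.

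Other changes of sign were of genes that were not called. With edgeR and DESeq2 they were -0.24 and -0.28 for *Mcm7* in DOX+IL-17A against control, 0.014 and 0.033 for *Cdc6* in DOX+IL-17A against DOX, and 0.72 and 0.81 for *Mcm2* in the interaction. With voom they were -0.00822 for *Orc1* in DOX+IL-17A against DOX, 0.042 for *Mcm10* in IL-17A against control and -0.039 for *Mcm2* in DOX+IL-17A against IL-17A.

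The labels do not say what a replicate number shares. The 13 same-number pairs had a mean correlation of deviations of 0.151, 8 of them above 0.1 and the lowest -0.175, beside -0.0368 for 50 other pairs; the 3 pairs of DOX+IL-17A with IL-17A were all above 0.1. A fit with replicate as a block called 837 genes higher and 540 lower in DOX against control, 637 and 557 in DOX+IL-17A against control, and 6 and 8 in DOX+IL-17A against DOX, in place of 14 and 40, and 679 and 678 in DOX+IL-17A against IL-17A. In the block fit *Cdt1* was at 0.99 in DOX+IL-17A against control and fell below the fold limit (the other called licensing genes stayed called), *Mcm2* was at 0.25 there, *Mcm3*, *Cdc6* and *Orc1* were at 0.14, 0.11 and -0.082 in DOX+IL-17A against DOX, and *Mcm3* and *Mcm10* were at 0.024 and 0.12 in IL-17A against control. Of the pathway lists, *Ccne1* (1.23), *Mcm8* (0.87), *Pcna* (0.78), *Pola1* (-0.94), *Rfc3* (0.92), *Tipin* (0.96) and *Timeless* (0.99) were then not called in DOX against control, nor *Donson* (1.03), *Mcm9* (-1.05) and *Pola2* (1.31) in DOX+IL-17A against control, whereas *Timeless* (1.01) and *E2f1* were called there and *E2f1*, *Gins3* (1.18), *Fen1* (1.07) and *Rpa2* (1.098) in DOX+IL-17A against IL-17A.

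Leaving out each library in turn changed the sign of values that were not called, with these ranges. In DOX against control they were -0.092 to 1.01 for *Mcm2* and -0.60 to 0.34 for *Mcm7*. In DOX+IL-17A against control they were -0.90 to 0.39 for *Mcm2*, -0.00065 to 0.60 for *Mcm5* and -0.32 to 0.62 for *Mcm7*. In DOX+IL-17A against DOX they were -0.66 to 0.26 for *Mcm4*, -0.14 to 0.16 for *Cdc6* and -0.088 to 0.22 for *Orc1*. In IL-17A against control they were -0.97 to 0.13 for *Mcm2*, -0.40 to 0.26 for *Mcm3*, -0.057 to 1.02 for *Mcm4*, -0.048 to 0.39 for *Mcm5*, -0.62 to 0.31 for *Mcm7* and -0.21 to 0.29 for *Mcm10*. In DOX+IL-17A against IL-17A they were -0.33 to 0.67 for *Mcm2*, -0.18 to 1.06 for *Mcm4*, -0.13 to 0.43 for *Mcm5* and -0.44 to 0.13 for *Mcm6*. In the interaction they were -0.76 to 0.36 for *Mcm2*, -0.33 to 0.33 for *Mcm3* and -0.031 to 0.90 for *Mcm7*. The *Cdt1* to *Gmnn* difference between IL-17A and control ranged from -0.35 to 0.34.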

Other observations

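Outside the lists, the genes whose log2 values followed the mean standardized level of the 10 licensing genes most closely over the 13 libraries were *1700047I17Rik2* and *Fam177a* (both Pearson r = 0.981), *Ppp1r15a* (0.971), *L3mbtl2* (0.964) and *Dbr1* (0.963). The first pair had nearly the same values in every group (control means of 54.0 for both), so they may share reads and are uncertain as separate genes. *Ppp1r15a*, also known as GADD34, which recruits a phosphatase to eIF2α in stressed cells, had a mean of 10.1 in control, 38.1 with DOX, 34.0 with DOX+IL-17A and 9.60 with IL-17A. *Dbr1*, the debranching enzyme of intron lariats, had means of 47.9, 137, 118 and 37.4 in the same order. These correlations were picked as the highest of all genes and are a description of libraries that share the same group differences.

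The mean log2 level of *Orc1*, *Cdc6* and *Cdt1* minus that of the 6 ring subunits was -2.61 to -1.43 in control, -1.56 to -1.34 with IL-17A, -0.94 to -0.76 with DOX and -1.02 to -0.41 with DOX+IL-17A. Libraries with DOX were above those without it, and the lowest was control replicate 1. Without *Mcm2* the ranges were -3.39 to -2.45, -2.66 to -2.35, -1.98 to -1.74 and -1.92 to -1.60 in the same order.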
